A study of Homo sapiens with 4 samples.

Results

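The BCL2 family decides whether the mitochondria of a cell release the proteins that start apoptosis, and 10 of its genes were followed here in triple-negative breast cancer cells depleted of the receptor tyrosine kinase AXL. Members were taken by gene symbol from the 63677 rows of the deposited table, and each of the 10 symbols had a single row. They comprised 4 anti-apoptotic genes (BCL2, BCL2L1, BCL2L2 and MCL1) and 6 pro-apoptotic genes, namely the effectors BAX and BAK1 and the BH3-only genes BCL2L11, BBC3, PMAIP1 and BID.

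RNA sequencing was performed on MDA-MB-231, an established and widely used line of human triple-negative breast cancer. Cells had received a control siRNA (siCt, 2 libraries) or a pool of siRNAs directed against AXL (siAXL, 2 libraries) by lipid transfection. No other treatment or time point is given in the labels, and a single cell line stands for the disease. With a single siRNA pool and a single control siRNA, loss of AXL and other effects of the siRNAs cannot be told apart. The labels do not say whether the libraries came from separate cultures, so the p-values measure only the spread between these samples, which may be technical.

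In healthy and malignant cells alike, the anti-apoptotic proteins BCL-2, BCL-XL, BCL-W and MCL-1 hold the effectors BAX and BAK in check at the outer mitochondrial membrane. BH3-only proteins, which sense stress such as growth factor withdrawal or DNA damage, bind the anti-apoptotic proteins or activate the effectors directly, and the pores then formed let cytochrome c escape and caspases start. Survival kinases downstream of receptors such as AXL act on this balance, among other ways by restraining the transcription and the stability of BIM, the protein of BCL2L11.

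Values are normalized counts, which are reads per gene divided by a size factor of the library, and the libraries held 39574387 to 44585773 reads. The comparison of siAXL with siCt used limma on log2(normalized count + 1), which understates changes of low genes. Called genes are those with an adjusted p under 0.05, by the method of Benjamini and Hochberg over the 16064 genes tested. An exact permutation of 2 and 2 libraries cannot reach a two-sided p below 0.333, and limma's calls therefore depend on a variance estimate borrowed from all genes. AXL, the targeted gene, had 29189 and 30617 normalized counts in the siCt libraries and 8658 and 7141 in the siAXL libraries, a log2 fold change of -1.93 (SE 0.0918, limma adjusted p = 0.000585). The mesenchymal markers VIM and CD44 were abundant in every library, and ESR1 and PGR, the oestrogen and progesterone receptors, stayed at or below 3.25 normalized counts. SPARC, a further mesenchymal marker on the list, was low, between 18.2 and 55.4. The epithelial gene EPCAM (565 to 771) and ERBB2 (2949 to 3680) were present, and ERBB2 was called higher in siAXL (log2 fold change 0.26, limma adjusted p = 0.0258). The epithelial cadherin CDH1 was low, at 90.1 and 94.3 in siCt and 36.9 and 22.6 in siAXL. It was called lower (log2 fold change -1.64, limma adjusted p = 0.00847). The leukocyte marker PTPRC reached at most 16.7, and the endothelial marker PECAM1 was listed at 0, where 3 reads in each library is the limit that a count of 0 allows.

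Depletion of AXL was accompanied by opposite changes in a pair of members. MCL1, which encodes a short-lived anti-apoptotic protein, rose by 29.3%, and BCL2L11, which encodes the BH3-only activator BIM, fell by 22.2%. The other 8 members did not pass the test. The 2 calls among 10 members make 20%, and the share among all genes tested was 18.7%, or 10.8% called higher and 7.91% called lower in siAXL, so the number of calls did not set the family apart. With scaling by library size alone, the share of higher genes among all calls went from 57.7% to 46.8%. In 7 of 10 members the siAXL libraries lay wholly above or wholly below the siCt libraries, as they did for 61.2% of all genes tested.

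**Figure D1:**
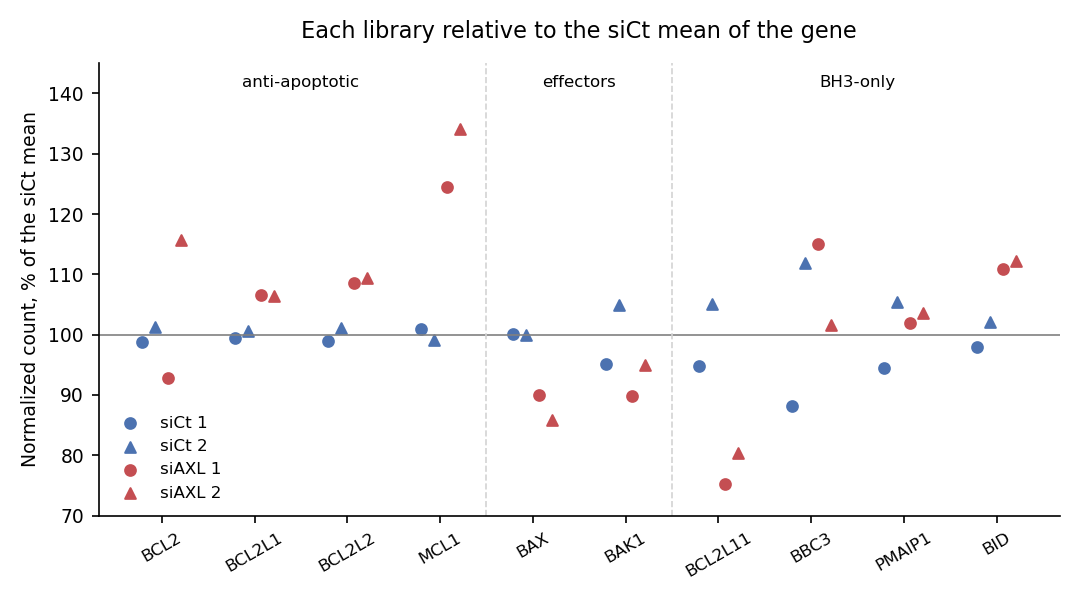
Normalized count of each member in each library, in percent of the mean of the siCt libraries for that gene (vertical axis, which does not start at 0), with siCt in blue and siAXL in red, circles for replicate 1 and triangles for replicate 2. MCL1 stands highest in siAXL and BCL2L11 lowest, while BCL2, BBC3 and PMAIP1 overlap between the groups.

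Because counts grow with transcript length, levels were compared between members per kb of exon. The length was the union of exons over all transcripts of a gene in the GENCODE 29 gene models. BCL2L1, the gene of BCL-XL, was the most abundant member, with 8759 normalized counts per kb averaged over the 4 libraries, above 99.2% of the 13081 protein-coding genes tested that have an exon length. MCL1 followed with 3648 and PMAIP1, the gene of NOXA, with 2749 normalized counts per kb. The effectors BAX and BAK1 came next at 1429 and 1228, and their ranges over libraries overlapped. BCL2L2 (498) and BID (341) took the middle of the order. BBC3 (139) and BCL2L11 (136) could not be separated, since the ranges of their libraries overlapped. BCL2, the founding member of the family, was the least abundant at 24.7 normalized counts per kb and exceeded only 14.8% of the same protein-coding genes. Apart from those neighbouring pairs, no neighbours in the order had overlapping libraries. The order and the percentages also rest on the exon lengths, which can exceed the transcripts present in these cells. Whether neighbours would change places with other lengths was not tested.

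**Figure D2:**
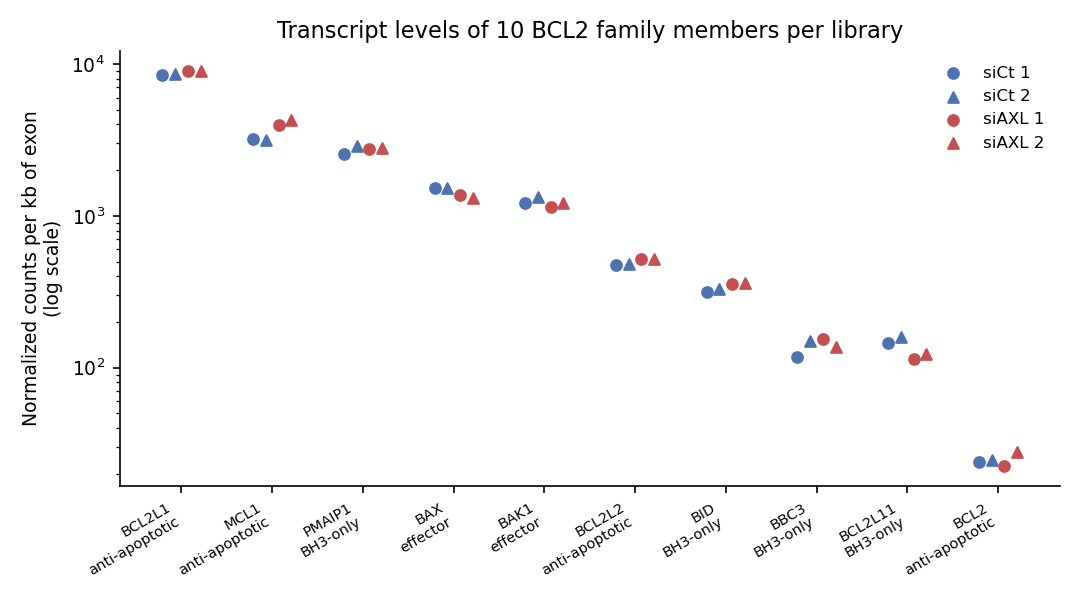
Normalized counts per kb of exon (vertical log axis) for the 10 members in each library, ordered by their mean, with siCt in blue and siAXL in red, circles for replicate 1 and triangles for replicate 2. BCL2L1 leads at 8759 and BCL2 closes the order at 24.7 normalized counts per kb, and the shifts between groups are small beside the distances between genes.

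Summed per kb, the 4 anti-apoptotic members exceeded the 6 pro-apoptotic members in every library. The ratio of the sums was 2.07 and 1.92 in the siCt libraries, and 2.29 and 2.33 in the siAXL libraries. Both siAXL libraries therefore lay above both siCt libraries, and the sums themselves show that the anti-apoptotic term differed more, at 12140 and 12191 normalized counts per kb in siCt beside 13543 and 13844 in siAXL. For the pro-apoptotic term, 5877 and 6357 in siCt enclosed the 5907 and 5947 of siAXL. These are sums of transcripts, in which BCL2L1 and MCL1 weigh most, and proteins were not measured. They depend on the exon lengths used. The separation of the groups follows from the values of the single genes and adds no evidence.

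Among the anti-apoptotic genes, all 4 log2 fold changes were above 0, as were 7981 of the 16064 over all genes tested. That of BCL2 fell below 0 without siAXL 2. The median of the 4 was 0.11 against -0.0022 over all genes tested, and only MCL1 passed the test. MCL1 (ENSG00000143384) had 14030 and 13784 normalized counts in siCt 1 and siCt 2, respectively, and 17311 and 18657 in siAXL 1 and siAXL 2. Both siAXL libraries stood well above both siCt libraries, which differed little from each other. The siCt libraries averaged 13907 ± 173 (SD, n = 2) and the siAXL libraries 17984 ± 952 (SD, n = 2), and the log2 fold change was 0.37 (SE 0.0594, 95% interval 0.23 to 0.51, limma adjusted p = 0.00868). The rise kept its call with each library left out in turn, with values from 0.32 to 0.42 and limma adjusted p from 0.00139 to 0.044, where the lone library of a group is assumed to vary like the others. Reads were counted per gene, so the long MCL1 transcript and its shorter pro-apoptotic splice form are not told apart.

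The 3′ UTR of MCL1 is shown for a single site, because it holds the 7-base word CACATCA, which an earlier analysis of these data had picked out and which is therefore described only. In a transcript with 2819 bases of 3′ UTR, the word starts at base 1241 of the UTR. The site lies at chr1:150576118-150576144 on the minus strand of GRCh38 in the GENCODE 29 annotation, with the word in capitals:
MCL1 3′ UTR: ataaaaagatCACATCAggtggatgga
MCL1 was the only member with the word in its 3′ UTR. BCL2L1 had a copy upstream of its UTR. Of the tested genes with a 3′ UTR, 1474 (11.4%) held the word, and their log2 fold changes had a median of 0.10 against -0.0094 in the 11470 without it. Higher calls made up 27.0% of the genes with the word and 11.1% of those without. As the word was picked out from these same data, this difference is not independent evidence. MCL1 lay above 76.1% of the genes with the word. Their 3′ UTRs were also longer, at a median of 3259 bases against 1143, and the part of the word or of UTR length in the value of MCL1 was not tested.

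BCL2L1 (ENSG00000171552), whose main product BCL-XL guards the mitochondria of many solid tumours, had 27952 and 28272 normalized counts in the siCt libraries, compared with 29966 and 29914 in the siAXL libraries. The groups did not overlap, but the difference did not pass the test, with a log2 fold change of 0.091 (SE 0.0541, 95% interval -0.037 to 0.22, limma adjusted p = 0.287). BCL2L2 (ENSG00000129473), the gene of BCL-W, gave 1975 and 2016 in siCt against 2168 and 2184 in siAXL. Again both siAXL libraries were above both siCt libraries without passing the test (log2 fold change 0.12, SE 0.0578, 95% interval -0.012 to 0.26, limma adjusted p = 0.179). Of the exon bases of BCL2L2, 19.4% are shared on the same strand with the readthrough gene BCL2L2-PABPN1, which had a mean of 69 reads per library against 2094 for BCL2L2, and 4.92% lie opposite PPP1R3E. How reads in these bases were counted is not given, so the level of BCL2L2 per kb is uncertain to that extent. BCL2 (ENSG00000171791) had 281 and 288 in siCt, while siAXL 1 was below these at 264 and siAXL 2 above at 329. No direction can be given for BCL2, whose log2 fold change was 0.051 (SE 0.130, 95% interval -0.26 to 0.36, limma adjusted p = 0.824) and went to -0.11 without siAXL 2.

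The effectors, which form the pores in the outer membrane, were both lower in siAXL without passing the test. BAX (ENSG00000087088) had 3940 and 3931 normalized counts in the siCt libraries, compared with 3541 in siAXL 1 and 3376 in siAXL 2. The control libraries were nearly equal and both siAXL libraries were below them. Its log2 fold change of -0.19 (SE 0.0560, 95% interval -0.32 to -0.055) narrowly missed the threshold (limma adjusted p = 0.0594). BAX passed when libraries were scaled by size alone (limma adjusted p = 0.037), a scaling that moved the median of all genes to -0.031. With DESeq2 (adjusted p = 0.102) it did not pass, nor when every gene with at least 1 read was tested (limma adjusted p = 0.117). Leaving out each library in turn gave log2 fold changes from -0.22 to -0.15. BAK1 (ENSG00000030110) had 2684 and 2961 in siCt and 2538 and 2683 in siAXL. The higher siAXL library nearly touched the lower siCt library, and the log2 fold change was -0.11 (SE 0.0699, 95% interval -0.28 to 0.053, limma adjusted p = 0.310). It went to -0.041 without siCt 2 and to -0.18 without siCt 1.

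BCL2L11 was the sole BH3-only gene that passed the test. Its protein BIM binds every anti-apoptotic member and can activate BAX and BAK, and its gene is a classical target of FOXO factors, which AKT keeps out of the nucleus. BCL2L11 (ENSG00000153094) had 963 and 1067 normalized counts in the siCt libraries, and only 764 in siAXL 1 and 816 in siAXL 2. Both siAXL libraries were below both siCt libraries, and the drop exceeded the spread within either group. The siCt libraries averaged 1015 ± 73.9 (SD, n = 2) and the siAXL libraries 790 ± 36.2 (SD, n = 2), with a log2 fold change of -0.36 (SE 0.0835, 95% interval -0.56 to -0.16, limma adjusted p = 0.0276). The call was less secure than that of MCL1. It was lost without siCt 2 (-0.29, limma adjusted p = 0.0726), without siAXL 1 (-0.31, adjusted p = 0.125) and without siAXL 2 (-0.41, adjusted p = 0.0553), and also when every gene with at least 1 read was tested (adjusted p = 0.0811). Because RNA was pooled over all cells of a culture, fewer cells with the transcript and less transcript per cell cannot be told apart, here or for any other member.

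The exons of BCL2L11 overlap those of a neighbour. Of the exon bases of BCL2L11, 10.9% (727 bases) lie opposite exons of MIR4435-1HG. This long non-coding RNA gene had more reads (a mean of 1624 per library against 902 for BCL2L11). Neither the strand setting of the counting nor its handling of reads in such an overlap is given in the sources used here. MIR4435-1HG had 1522 and 1574 normalized counts in siCt and 1629 and 1746 in siAXL. It thus lay higher in siAXL, opposite to BCL2L11, with a log2 fold change of 0.12 that did not pass the test (SE 0.0669, limma adjusted p = 0.244).

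The promoter of BCL2L11 is shown because FOXO and E2F factors are known to act on BH3-only genes. RefSeq windows (GRCh38.p14, 300 bases around a transcription start) were at hand for 8 of the 10 members, BCL2L2 and MCL1 being the others, and were searched on both strands. The core FOXO word GTAAACA occurred in the BCL2L11 window and in no other member's window, and in 3.42% of all 35116 windows. It is in capitals below, and begins at position -223 from the start, in the window chr2:111120664-111120963 on the plus strand:
BCL2L11 promoter: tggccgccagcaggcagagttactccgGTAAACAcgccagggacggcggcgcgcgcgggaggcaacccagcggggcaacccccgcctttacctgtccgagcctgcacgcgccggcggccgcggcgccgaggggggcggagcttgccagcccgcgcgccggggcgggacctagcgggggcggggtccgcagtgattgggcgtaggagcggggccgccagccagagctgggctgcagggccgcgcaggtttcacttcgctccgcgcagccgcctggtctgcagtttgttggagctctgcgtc
Its surroundings are rich in G and C, with the GC box GGGCGG at 3 positions, a word found in 45% of all windows. The E2F words TTTGGCGC, TTTCCCGC, TTTCGCGC and TTTGCCGC were in none of the members' windows and in 3.31% of all windows. A match of letters is a description of the sequence and shows no binding. The part of FOXO factors in the value of BCL2L11, which was lower in siAXL, was not tested.

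The remaining BH3-only genes did not pass the test. BBC3 (ENSG00000105327), the gene of PUMA, a BH3-only protein that binds every anti-apoptotic member, had 375 and 476 normalized counts in the siCt libraries, compared with 489 and 432 in the siAXL libraries. The control libraries spanned most of the range, so the groups overlapped (log2 fold change 0.12, SE 0.134, 95% interval -0.19 to 0.44, limma adjusted p = 0.571). PMAIP1 (ENSG00000141682), whose product NOXA binds MCL-1 in particular, had 5726 and 6392 in siCt, which enclosed the 6178 and 6277 of siAXL. Its log2 fold change was 0.042 (SE 0.0665, 95% interval -0.12 to 0.20, limma adjusted p = 0.709). For both genes the sign turned without siCt 1, to -0.048 for BBC3 and -0.038 for PMAIP1. BID (ENSG00000015475), which links death receptors to the mitochondria once caspase-8 has cut its protein, had 1404 and 1464 in siCt and 1590 and 1609 in siAXL. Here the groups did not overlap, and the log2 fold change was 0.16 (SE 0.0631, 95% interval 0.0090 to 0.31, limma adjusted p = 0.128). The 6 pro-apoptotic members thus divided evenly, with 3 above and 3 below 0 and a median log2 fold change of -0.035, which went to 0.040 without siCt 2 and to -0.12 without siCt 1.

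**Figure D3:**
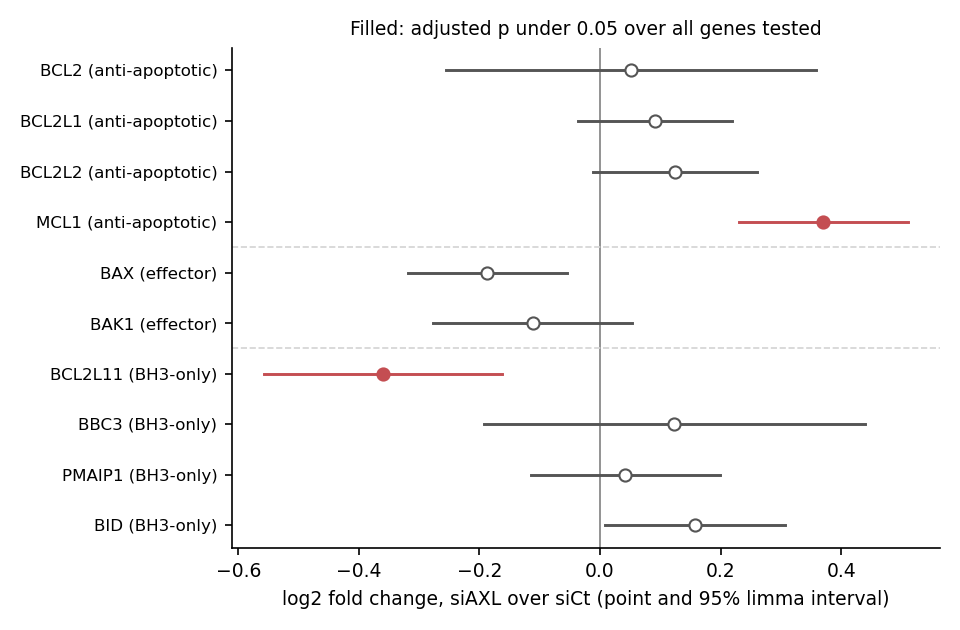
Log2 fold change of siAXL over siCt (horizontal axis) for the 10 members, grouped by role, with 95% intervals from limma, filled where the adjusted p over all genes tested was under 0.05. The intervals of MCL1 (0.23 to 0.51) and BCL2L11 (-0.56 to -0.16) are filled, and those of BCL2 and BBC3 are the widest.

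Ratios of reads within a library do not depend on how libraries are scaled. The ratio of MCL1 to BCL2L11 reads was 14.6 and 12.9 in the siCt libraries, and 22.6 and 22.9 in the siAXL libraries, so that it was 1.66 times as high in siAXL. For BCL2L1 over BCL2L11, 29.03 and 26.49 in siCt compared with 39.2 and 36.7 in siAXL. Both ratios share BCL2L11, and since the numerators lay wholly above and BCL2L11 wholly below the controls in siAXL, their separation follows from the single genes and adds no evidence. The ratio of BAX to BCL2L1 was 0.141 and 0.139 in siCt and 0.118 and 0.113 in siAXL, which likewise follows from the values of its genes. The BAX to BCL2 ratio, often quoted as a measure of readiness for apoptosis, was 14.0 and 13.6 in siCt and 13.4 and 10.3 in siAXL. It was lower in both siAXL libraries, but siAXL 1 came close to the controls.

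**Figure D4:**
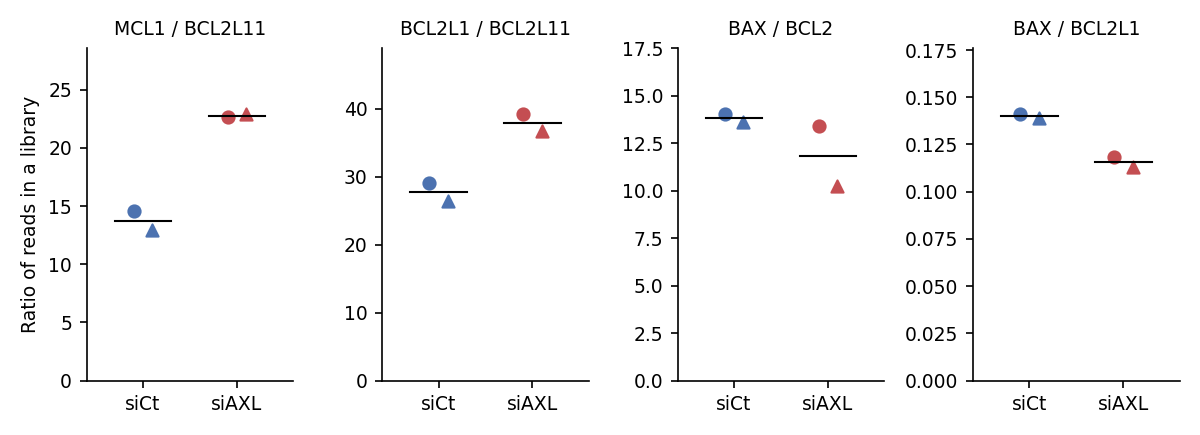
Ratios of the reads of 2 members within each library (vertical axes from 0, no unit) for siCt in blue and siAXL in red, circles for replicate 1, triangles for replicate 2 and a line at the group mean. MCL1 over BCL2L11 goes from 14.6 and 12.9 in siCt to 22.6 and 22.9 in siAXL, and BAX over BCL2L1 is lower in both siAXL libraries.

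The genes around the family were read from lists of 55 further apoptosis genes, of which 52 were tested. BCL2L10, BCL2L14 and HRK had too few reads, with at most 2 in any library. Of the 52 tested, 4 rose and 5 fell, which is 17.3% beside the 18.7% of all genes, and the median log2 fold change was -0.078. The share of calls in the wider set was thus near the background. The single lists held 3 to 15 tested genes, and their shares of 13.3% to 33.3% rest on 1 or 2 calls each.

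Of the 10 tested relatives of the family, BNIP3 and BNIP3L rose. Both encode outer membrane proteins with a BH3-like stretch that are best known as receptors for the removal of mitochondria and as genes induced by low oxygen. BNIP3L had 7825 and 6741 normalized counts in siCt and 14584 and 14946 in siAXL, a log2 fold change of 1.02 (SE 0.0771, limma adjusted p = 0.00136), which exceeded that of every member. BNIP3 had 9299 and 8405 in siCt and 12244 and 12275 in siAXL (log2 fold change 0.47, SE 0.0640, limma adjusted p = 0.00509). Both genes kept their call with each library left out. The further BH3-only genes BAD (log2 fold change 0.15), BIK (-0.18) and BMF (-0.16) did not pass the test, with limma adjusted p from 0.125 to 0.346.

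On the list of apoptosome, caspase and released-protein genes, 2 of 15 (13.3%) were called lower and none higher. Among all genes tested, 7.91% were called lower and 10.8% higher. CYCS, the gene of cytochrome c, had 8469 and 8637 normalized counts in siCt and 6351 and 6428 in siAXL (log2 fold change -0.42, SE 0.0517, limma adjusted p = 0.00384). CASP2, an initiator caspase, had 1907 and 1892 in siCt and 1541 and 1525 in siAXL, a log2 fold change of -0.31 (SE 0.0596, limma adjusted p = 0.0155). In both genes the control libraries agreed closely and the siAXL libraries lay clearly below. The call of CASP2 was lost without siAXL 1 (limma adjusted p = 0.068) and without siAXL 2 (0.072). The other 13 genes of the list, among them CASP9 (log2 fold change -0.029) and APAF1 (0.091), did not pass the test.

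Of 7 caspase inhibitors, BIRC3 fell, with 5027 and 5354 normalized counts in siCt and 4380 and 4376 in siAXL (log2 fold change -0.24, SE 0.0572, limma adjusted p = 0.028). Its protein cIAP2 is a ubiquitin ligase of the NF-κB and death receptor pathways. The call held without siCt 1 but not without siCt 2 (log2 fold change -0.20), siAXL 1 (-0.25) or siAXL 2 (-0.24). It was also lost when every gene with at least 1 read was tested (limma adjusted p = 0.0775). Of 3 outer membrane channels, VDAC2, known for keeping BAK at the mitochondria, fell from 5729 and 5721 to 4945 and 4787 (log2 fold change -0.23, SE 0.0530, limma adjusted p = 0.0253). That call was lost without siCt 2 (log2 fold change -0.24), siAXL 1 (-0.26) or siAXL 2 (-0.21). Testing every gene with at least 1 read lost it too (limma adjusted p = 0.0659).

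MCL-1 protein is cleared by ubiquitin ligases, and the 6 genes on its turnover were read beside MCL1. FBXW7, the substrate receptor of a ligase that targets MCL-1, rose from 1113 and 1091 normalized counts in siCt to 1336 and 1324 in siAXL (log2 fold change 0.27, SE 0.0646, limma adjusted p = 0.0298). This call was lost without siCt 2 (log2 fold change 0.26), siAXL 1 (0.26) or siAXL 2 (0.28), and with DESeq2 (adjusted p = 0.0537). It was also lost when every gene with at least 1 read was tested (limma adjusted p = 0.0660). HUWE1, the ligase also called MULE, and USP9X, a deubiquitinase that stabilises MCL-1, overlapped between the groups, at log2 fold changes of -0.14 and -0.0085.

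Of 11 transcription factor genes known to act on BH3-only genes, E2F1 fell and FOXO4 rose. E2F1, a factor of the G1 to S transition that can also drive BH3-only genes, had 3625 and 3568 normalized counts in siCt and 2571 and 2462 in siAXL (log2 fold change -0.52, SE 0.0569, limma adjusted p = 0.00304), and kept its call with each library left out. FOXO4 had 527 and 583 in siCt and 687 and 702 in siAXL (log2 fold change 0.32, SE 0.0865, limma adjusted p = 0.042). Its call was lost without siCt 1 (log2 fold change 0.25), siAXL 1 (0.34) or siAXL 2 (0.31). DESeq2 (adjusted p = 0.0797) and scaling by library size (limma adjusted p = 0.0506) lost it too. The same held when every gene with at least 1 read was tested (limma adjusted p = 0.0960). FOXO3 had a log2 fold change of -0.023 and FOXO1 of -0.16, neither past the test (limma adjusted p = 0.893 and 0.288). Transcript levels say nothing of the phosphorylation that moves FOXO factors.

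**Figure D5:**
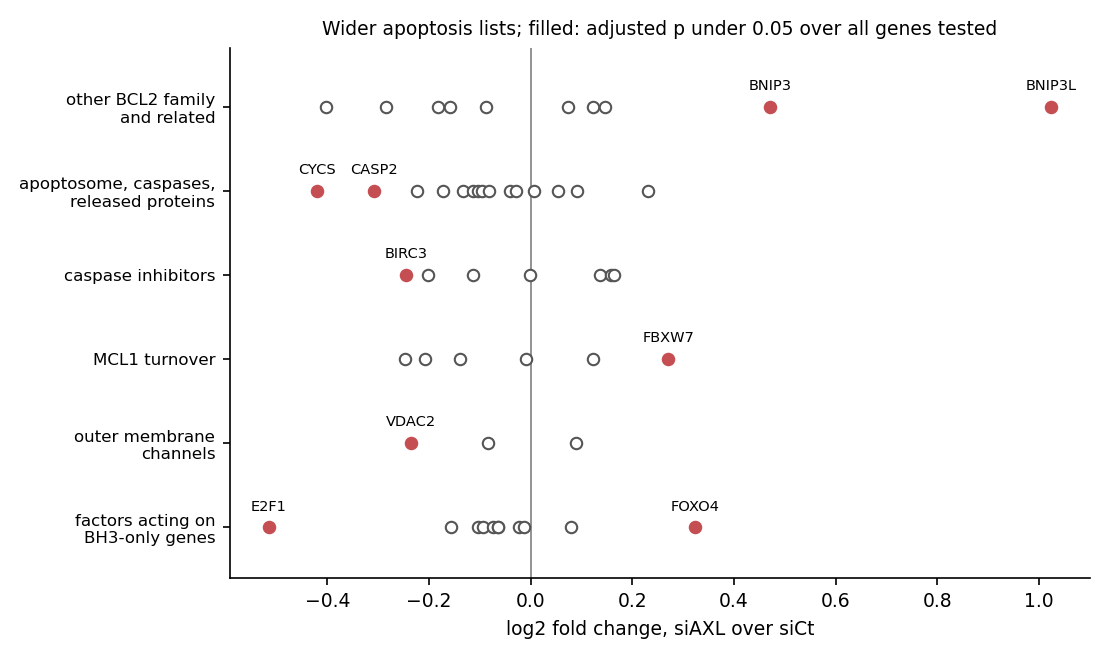
Log2 fold change of siAXL over siCt (horizontal axis) for the 52 tested genes of the wider apoptosis lists, a row for each list, filled and named where the adjusted p over all genes tested was under 0.05. BNIP3L at 1.02 lies furthest to the right and E2F1 at -0.52 furthest to the left, and most genes lie near 0.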

How the data were processed

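For each library the authors deposited a signal of normalized counts, made from reads per gene by division with its DESeq2 size factor. The submitters' processing notes list CASAVA 1.8, TopHat2 2.0.10, HTSeq 0.5.3, DESeq2 1.4.5 and the build GRCh37, and the annotation release and strand setting are not given in the sources used here. The deposited fold changes, standard errors, test statistics and p-values hold the authors' comparison and were not used. Within a tolerance of 0.01, 100% of the values in each library equalled a whole number of reads over that factor, and the whole reads were recovered. Per-sample columns not used numbered 0.

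Genes passing edgeR's filterByExpr on these reads, 16064 in all, were tested with limma 3.58.1 (R 4.3.3, lmFit, eBayes with trend) on log2(normalized count + 1), without covariates. Alternatives were edgeR 4.0.16 (quasi-likelihood, 3122 genes called) and DESeq2 1.42.0 (2596 called) on the recovered reads, other scalings, filters, pseudocounts and thresholds, a replicate block and leaving out each library. The fitting code was tested on simulated data. Genes named by the rule were AXL, the 10 members and the called genes of each wider list, at most 5 in each direction. Further genes named with values were chosen after their values were seen, and some list genes are counted but not reported here by name. The members, lists and the 3′ UTR word were chosen with earlier results of these data known. Exon lengths, overlaps and 3′ UTRs came from GENCODE 29 (GRCh38), matched by Ensembl identifier, and promoters from RefSeq. Replicates differed by more than sampling noise (chi-square per gene of 20.1 in siCt and 18.2 in siAXL). At 39574387 to 44585773 reads per library, the least abundant member, BCL2, still had a mean of 291.5 reads per library. BCL2 and BBC3, the members with the fewest reads (means of 291.5 and 443.5), also had the largest SE (0.130 and 0.134). Depth and the spread between 2 libraries both enter these values, and their parts were not separated.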

Additional observations from a re-analysis of the deposited data

How the results depend on the processing

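The call of MCL1 held in each of the 14 alternatives, with log2 fold changes from 0.32 to 0.42, while that of BCL2L11 held in 9 of 14. No other scaling, pseudocount or count test turned the direction of a member, and scaling moved the median of all genes to between -0.031 and 0.0069. Testing every gene with at least 1 read (27108 genes) gave 1097 calls in place of 3006, 1 member in place of 2 and 5 genes of the wider lists in place of 9. At an adjusted p under 0.01 these counts were 859, 1 and 4. Over the runs that leave out 1 library each they ranged from 1301 to 3900, from 1 to 2 and from 4 to 16, where the lone library of a group is assumed to vary like the others. The lowest count of all genes came without siAXL 1 (1301), and without siAXL 2 it was 1518. The wider lists gave 16 without siCt 1, 6 without siCt 2 and 4 without either siAXL library. In the same runs the anti-apoptotic median ranged from 0.096 to 0.17 and the pro-apoptotic median from -0.12 to 0.040, BCL2 from -0.11 to 0.21, BBC3 from -0.048 to 0.29 and PMAIP1 from -0.038 to 0.12, so the signs of the last 4 rest on single libraries. The cause was not tested. With the replicate number as a replicate block, 7310 of the 16064 genes tested were called, in place of 3006. The calls took in 7 of the 10 members and 27 of the 52 tested genes of the wider lists. BAX, BAK1, BCL2L1, BCL2L2 and BID joined MCL1 and BCL2L11, as calls rose over all genes. The labels do not say that a number marks a shared culture, and the differences between replicates correlated between the groups at 0.27 across 16064 genes, which are not independent. With 2 libraries a group, the spread of any single gene is poorly known.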
